A study of Mus musculus with 6 samples.

Results

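The genes described here are 10 chemokines that liver parenchymal cells are known to be able to make: Cxcl1, Cxcl2, Cxcl5, Cxcl10, Cxcl12, Cxcl16, Ccl2, Ccl7, Ccl20 and Cx3cl1. They were chosen by symbol as 10 of the 25330 genes in the tables, and 8 of them had more than 3 counts in some library. The libraries came from AML12 cells, a wild-type mouse hepatocyte line derived from animals that carried a human TGF-alpha transgene. Of 6 RNA-seq libraries, 3 were from Control cells in normoxia (21% oxygen) and 3 from cells given hypoxia (1% oxygen) for 6 h and then reoxygenation for 2 h (H/R). For hypoxia the routine medium, which held 10% fetal bovine serum, an insulin, transferrin and selenium supplement and 40 ng/mL dexamethasone, was exchanged for one without serum and glucose. Low oxygen, its return and the change of medium therefore cannot be told apart. Whether the medium used for hypoxia still held the supplement or dexamethasone is not stated. All libraries are from 1 cell line in culture, and nothing in the labels says that replicates were separate cultures, so p-values measure the spread between these libraries, which may be technical.

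Chemokines are small secreted proteins that direct leukocytes along a gradient by binding G protein-coupled receptors. In the liver, CXC chemokines with an ELR motif (Cxcl1, Cxcl2, Cxcl3, Cxcl5) act on Cxcr2 of neutrophils, Ccl2 and Ccl7 act on Ccr2 of monocytes, and others direct lymphocytes and dendritic cells. Many of these genes carry sites for NF-kB near their start and are induced within hours by cytokines or injury, and their messages are often short-lived.

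Total counts lay between 21026650 and 21854790 in the Control libraries and between 20438746 and 21742441 in the H/R libraries. A filter on low counts left 14020 genes, to which the quasi-likelihood test of edgeR was applied, with p-values adjusted after Benjamini and Hochberg. Genes are said to be called where they had a fold change of at least 2 and an adjusted p under 0.05. By this rule 1195 genes (8.52%) were called, of which 596 (4.25%) were higher and 599 (4.27%) lower after H/R. The adjusted p alone was under 0.05 for 8806 genes (62.8%), with 4353 (31.0%) higher and 4453 (31.8%) lower, and for 9242 genes (65.9%) the 3 normalised counts of one group all lay above those of the other. A small difference was therefore common in these data. The hepatocyte transcription factor Hnf4a had 2973, 2973 and 3209 counts in Control and 2043, 2035 and 2166 after H/R (log2 fold change -0.41). Albumin (Alb) had 542, 132 and 209 counts in Control and 43, 31 and 37 after H/R. Of 8 hepatocyte markers listed, 7 were tested. Of these, 0 were called higher and 2 (Alb and Ttr) lower, beside 4.25% and 4.27% of all genes. At adjusted p alone 2 were higher (Krt8 and Krt18, log2 fold change 0.66 each) and 5 lower, beside 31.0% and 31.8%. Keratin 19 (Krt19), a bile duct marker, had between 18321 and 37240 counts, so the cells did not carry hepatocyte markers alone. The 3 bile duct markers analysed summed to between 27782 and 31681 counts in Control and between 49854 and 54203 after H/R, and their part in the values below was not tested. Control replicate 1 stood apart through liver transcripts such as Serpina1a, at 61 counts against at most 1 elsewhere, and without it the same number of the chemokines, 5, was called.

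Where sequence near the start of these genes was at hand, it is shown with its matches to the NF-kB (kB) consensus. Sequences are from RefSeq on GRCm38, written 5′ to 3′ in the direction of transcription, with kB matches in capitals. A promoter was found for 6 of the 10 genes, and the kB consensus, searched on both strands, was matched in 8.46% of all 32851 promoters of 300 bases. The first 3 stretches belong to neighbouring CXC chemokine genes and hold the same 11 letters, on which overlapping matches of either strand lie.
Cxcl1 (chr5:90891125-90891244, plus strand): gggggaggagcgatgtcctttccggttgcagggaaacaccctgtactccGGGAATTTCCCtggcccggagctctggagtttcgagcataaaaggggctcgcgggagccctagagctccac
Cxcl2 (chr5:90903779-90903898, plus strand): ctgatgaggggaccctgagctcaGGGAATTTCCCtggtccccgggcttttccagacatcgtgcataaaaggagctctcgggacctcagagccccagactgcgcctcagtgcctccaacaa
Cxcl3 (chr5:90785981-90786100, plus strand): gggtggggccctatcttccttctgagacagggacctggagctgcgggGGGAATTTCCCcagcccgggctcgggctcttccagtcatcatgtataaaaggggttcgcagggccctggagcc
Ccl20 (chr1:83116646-83116765, plus strand): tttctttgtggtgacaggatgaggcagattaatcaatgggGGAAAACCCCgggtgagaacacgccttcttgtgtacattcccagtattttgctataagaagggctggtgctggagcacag
The kB letters ran from -71 to -61 in Cxcl1, from -97 to -87 in Cxcl2, from -73 to -63 in Cxcl3 and from -80 to -71 in Ccl20, counted from the start that RefSeq gives, which is not in every case that of the deposited tables, from which the gene coordinates printed below are taken. These positions describe letters in the sequence and do not show that NF-kB was bound.

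Among the ligands of Cxcr2, which draw neutrophils, Cxcl2 was higher after H/R, Cxcl5 was lower and Cxcl1 differed by less than the spread between libraries. Cxcl1 (chr5:90891241-90893115), known as KC and the closest mouse relative of human GRO genes, had 879, 846 and 910 counts in Control and 791, 693 and 897 after H/R. The groups overlapped, and the normalised count was 838 ± 16.6 (SD, n = 3) in Control and 832 ± 76.5 (n = 3) after H/R. The log2 fold change was -0.01 (SE 0.061, adjusted p = 0.899 by edgeR's quasi-likelihood test), and its 95% interval, -0.13 to 0.11, leaves room for a fold between 0.911 and 1.08. The H/R libraries spread more than those of Control, with H/R replicate 2 the lowest.

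Cxcl2 (chr5:90903871-90905938), known as MIP-2, had 6, 2 and 5 counts in Control and 60, 73 and 73 after H/R. Every H/R library was above every Control library, in which the message was near the limit of detection. The normalised count rose from 4.11 ± 1.94 to 72.1 ± 7.09 (SD, n = 3 each), 17.0-fold, with a 95% interval of 10.9 to 26.3 (log2 fold change 4.08, SE 0.312, edgeR adjusted p = 1.40e-13). Cxcl2 passed the filter on low counts only through the H/R libraries, as did Cxcl10 and Ccl20, so that only a difference in this direction could have been seen in them. Even after H/R the level of Cxcl2 was low, at 1.59 ± 0.160 RPKM (counts relative to gene length and library total), against 20.2 ± 1.98 for Cxcl1 on the same scale.

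Cxcl5 (chr5:90759360-90761624), known as LIX, was the only one of the 10 genes that fell past the threshold. It had 1052, 905 and 1036 counts in Control and 150, 165 and 167 after H/R. The groups were far apart, with no H/R library above 167 counts. The normalised count fell from 951 ± 60.4 to 169 ± 8.36 (SD, n = 3 each), 5.64-fold lower, with a 95% interval of 5.07 to 6.27 (log2 fold change -2.49, SE 0.0756, edgeR adjusted p = 1.15e-24). By p-value it was gene 40 of the 14020 tested. In bulk RNA, fewer cells that made a message and less of it per cell cannot be told apart.

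**Figure D1:**
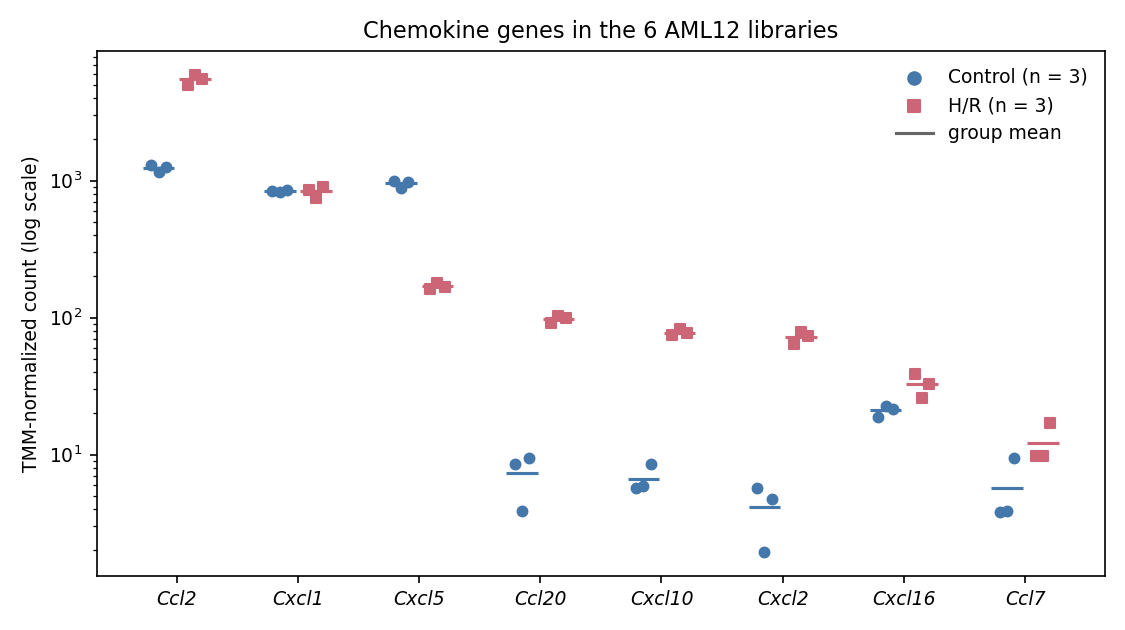
Normalised counts (log axis, counts scaled to the mean effective library size) of the 8 chemokines above 3 counts, in each of 3 Control and 3 H/R libraries, with 1 point per library and a bar at the group mean. Cxcl2, Cxcl10, Ccl20 and Ccl2 lie higher in every H/R library and Cxcl5 lower, while the points of Cxcl1 overlap.

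Cxcl1, Cxcl2 and Cxcl5 lie in the same cluster of CXC genes on chromosome 5, which spans 146.6 kb from the start of Cxcl5 to the end of Cxcl2. Cxcl2 starts 10.8 kb after the end of Cxcl1. Between them and Cxcl5 lies Cxcl3, another ligand of Cxcr2, which had 162, 154 and 188 counts in Control and 483, 627 and 650 after H/R. Cxcl3 rose 3.84-fold (log2 fold change 1.94, SE 0.0976, edgeR adjusted p = 1.57e-16), with no overlap between the groups. The other cluster members had few counts: Ppbp 2 to 12, Pf4 0 to 2, and Cxcl15 4, 3 and 4 in Control and 0 in each H/R library.

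Counts of these genes relative to Cxcl1 in the same library need no scaling between libraries. For every 100 counts of Cxcl1 there were 119.7, 107 and 113.8 counts of Cxcl5 in Control and 18.96, 23.81 and 18.62 after H/R. Cxcl2 stood at 0.683, 0.236 and 0.550 counts per 100 of Cxcl1 in Control and at 7.585, 10.53 and 8.138 after H/R. Cxcl3 stood at 18.43, 18.2 and 20.66 and then at 61.06, 90.48 and 72.46. In each of these ratios the groups did not overlap, and the two-sided exact permutation p was 0.1, the smallest that 3 against 3 libraries allow. In Control the cluster thus held about equal counts of Cxcl1 and Cxcl5, and after H/R it held mostly Cxcl1 and Cxcl3. The kB letters printed above for Cxcl1, Cxcl2 and Cxcl3 were the same in all 3 genes. Cxcl2 and Cxcl3 rose and the interval for Cxcl1 included no change. The part of these letters in the values was not tested.

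**Figure D2:**
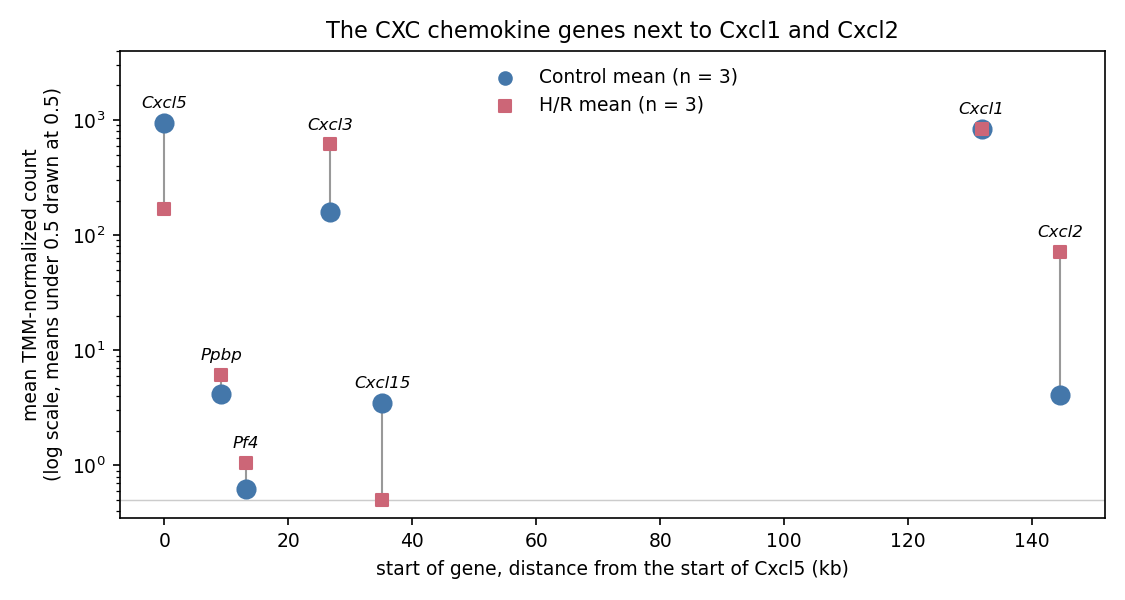
Mean normalised count (log axis) in Control (circles) and H/R libraries (squares, 3 libraries each) of the CXC genes in the cluster on chromosome 5, against the distance of each gene's start from that of Cxcl5 in kb, with a mean of 0 drawn on the grey line at the bottom. Cxcl5, at the left, is lower after H/R, Cxcl3 and Cxcl2 are higher, and the points of Cxcl1 lie on each other.

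Among the chemokines that act on monocytes, Ccl2 was the most abundant message and rose further. Ccl2 (chr11:82035571-82037453), known as MCP-1, is the main ligand of Ccr2 and draws monocytes out of the blood into the injured liver. It had 1364, 1192 and 1341 counts in Control and 4635, 5496 and 5542 after H/R. The lowest H/R library was more than 3 times the highest Control library. The normalised count rose from 1239 ± 67.6 to 5486 ± 469.8 (SD, n = 3 each), 4.43-fold, with a 95% interval of 4.08 to 4.81 (log2 fold change 2.15, SE 0.0573, edgeR adjusted p = 7.45e-19).

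Ccl7 (chr11:82045712-82047525), known as MCP-3 and also a ligand of Ccr2, starts 8.26 kb after the end of Ccl2. It had 4, 4 and 10 counts in Control and 9, 9 and 17 after H/R. The raw counts of the groups overlapped, the normalised counts were just apart (highest Control library 9.41, lowest H/R library 9.69), and Ccl7 did not pass the filter on low counts. Tested without a filter, its log2 fold change was 1.08 (SE 0.503, edgeR adjusted p = 0.0862), so that a rise of the neighbour of Ccl2 was not detectable at this depth. The RPKM of Ccl7 after H/R was 0.691, against 219.6 ± 19.3 (SD, n = 3) for Ccl2.

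Of the chemokines that act on lymphocytes and dendritic cells, Ccl20 and Cxcl10 rose from a few counts and Cxcl16 did not pass the fold threshold. Ccl20 (chr1:83116766-83119167), the ligand of Ccr6 on dendritic cells and T helper 17 cells, had 9, 4 and 10 counts in Control and 85, 95 and 99 after H/R. All 3 H/R libraries lay above all 3 Control libraries. The normalised count rose from 7.28 ± 2.96 to 97.6 ± 5.57 (SD, n = 3 each), 13.2-fold, with a 95% interval of 9.16 to 18.9 (log2 fold change 3.72, SE 0.257, edgeR adjusted p = 1.02e-14).

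Cxcl10 (chr5:92346638-92348889, minus strand), known as IP-10, is an interferon-inducible ligand of Cxcr3 on activated T cells and natural killer cells. It had 6, 6 and 9 counts in Control and 69, 76 and 77 after H/R. The groups did not overlap, and the 3 H/R libraries were close together. The normalised count rose from 6.67 ± 1.57 to 77.7 ± 3.89 (SD, n = 3 each), 11.4-fold, with a 95% interval of 7.84 to 16.7 (log2 fold change 3.52, SE 0.269, edgeR adjusted p = 1.39e-13). Of its exon length 5.91% is shared with Art3 on the other strand, which had between 1 and 3 counts. Its upstream sequence is shown because it held matches to 3 kinds of site, in capitals from left to right an interferon-stimulated response element (ISRE), a kB site, another kB site and an AP-1 site.
Cxcl10 (chr5:92348890-92349109, minus strand): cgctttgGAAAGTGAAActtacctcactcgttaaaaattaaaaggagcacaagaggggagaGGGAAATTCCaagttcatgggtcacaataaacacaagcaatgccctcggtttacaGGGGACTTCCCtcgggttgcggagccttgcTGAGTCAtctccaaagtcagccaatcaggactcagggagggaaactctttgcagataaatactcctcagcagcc
The ISRE letters ran from -213 to -204 and were matched in 3.44% of all promoters. The kB letters ran from -159 to -150 and from -104 to -94, and the AP-1 letters (TGANTCA, matched in 7.81% of all promoters) from -74 to -68. Of the 6 promoters found, Cxcl10 alone held an ISRE or AP-1 match. The neighbour of Cxcl10, Cxcl11, is another interferon-inducible Cxcr3 ligand. It lies upstream of Cxcl10 on the same strand, with 10.7 kb between them. Cxcl11 had 4, 2 and 11 counts in Control and 21, 20 and 30 after H/R. It rose 4.51-fold (log2 fold change 2.17, SE 0.409, edgeR adjusted p = 2.18e-05), and 41.7% of its exon length is shared with Gm2673, which had at most 1 count. Cxcl11 reached the filter's level in 1 Control library and 3 H/R libraries, so that it too was tested only through the H/R libraries.

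Other motifs were searched in the same way. The cyclic AMP response element TGACGTCA (1.79% of all promoters) and the interferon-gamma activated site TTCNNNGAA (8.30%) were matched in none of the 6. The hypoxia response letters ACGTG or GCGTG were matched in Cxcl1, Cxcl2, Cxcl10 and Ccl20 and also in 43.8% of all promoters. Neither Cxcl12 nor Cx3cl1 held a kB match in this window.

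Cxcl16 (chr11:70453983-70459984, minus strand), a membrane-bound ligand of Cxcr6 on natural killer T cells that is released by shedding, had 20, 23 and 23 counts in Control and 36, 24 and 33 after H/R. The groups did not overlap, but H/R replicate 2 was 1 count above the highest Control libraries. The normalised count was 21.0 ± 1.84 in Control and 32.5 ± 6.46 after H/R (SD, n = 3 each), with a log2 fold change of 0.63 (SE 0.265, edgeR adjusted p = 0.0383). It was not called, since the fold was 1.55, and the adjusted p was over 0.05 in 11 of 14 alternative analyses. It was 0.105 without Control replicate 1, 0.0517 without Control replicate 2, 0.0663 without Control replicate 3, 0.177 without H/R replicate 1, 0.0239 without H/R replicate 2 and 0.0824 without H/R replicate 3. Of the exon length of Cxcl16, 18.3% is shared with Zmynd15 on the other strand, which had at most 5 counts.

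Cxcl12 (chr6:117168535-117181367), the ligand of Cxcr4 that holds blood stem cells in their niche, had 2 counts in Control replicate 1 and 0 in the other libraries. Cx3cl1 (chr8:94772009-94782427), the membrane-bound ligand of Cx3cr1 on monocytes, had 1, 2 and 0 counts in Control and 0, 2 and 1 after H/R. Neither gene was measured at this depth, where 3 counts would correspond to at most 0.0180 RPKM of Cxcl12 and 0.0373 RPKM of Cx3cl1. These values only convert 3 counts to RPKM and are not upper limits that allow for counting error.

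Of the 10 genes 7 were tested, 4 were called higher and 1 lower, beside 4.25% and 4.27% of all genes tested. Because 3 of the 4 higher genes had passed the filter only through the H/R libraries, these numbers describe the genes and do not measure how often chemokines respond.

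**Figure D3:**
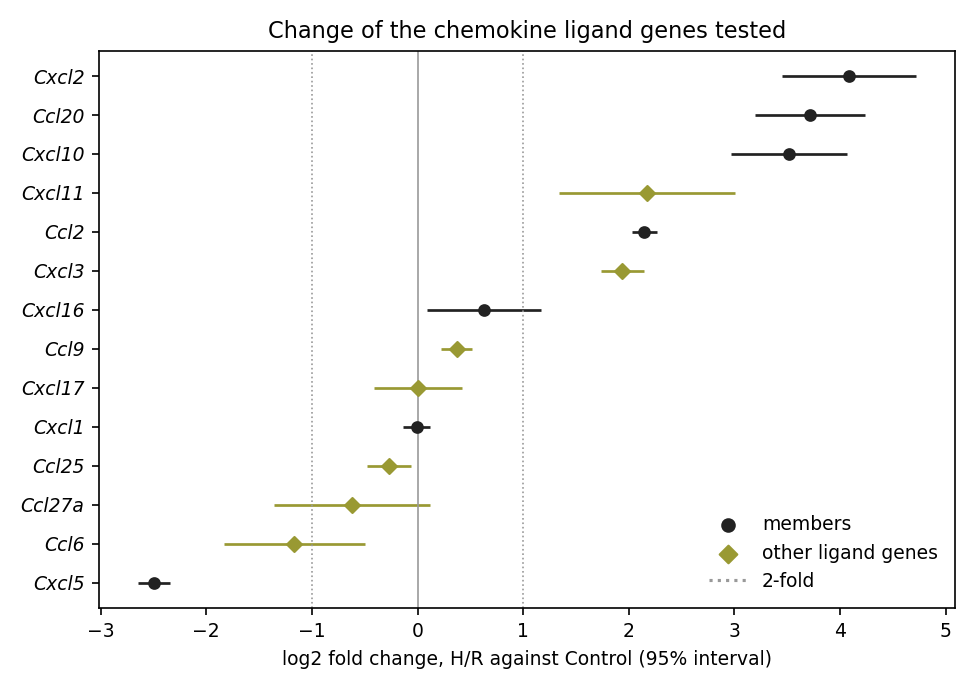
Log2 fold change (H/R against Control) of the tested genes among the 10 (members, black) and of the other tested chemokine ligand genes (diamonds), with 95% intervals from edgeR, 3 libraries in each group and dotted lines at 2-fold. Cxcl2 (4.08), Ccl20 (3.72) and Cxcl10 (3.52) lie farthest to the right, Cxcl5 (-2.49) lies farthest to the left, and the interval of Cxcl1 includes 0.

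Per length of message, 3 of the 10 genes stood apart from the others in Control. The RPKM was 53.3 ± 3.04 for Ccl2, 25.0 ± 1.66 for Cxcl5 and 21.9 ± 0.757 for Cxcl1 (SD, n = 3 each), and these 3 levels did not overlap. The other measured genes were between 0.0974 (Cxcl2) and 0.351 (Ccl7) RPKM, and neighbours in that order, Ccl7, Cxcl16, Ccl20, Cxcl10 and Cxcl2, overlapped. After H/R the order of RPKM was Ccl2 (219.6 ± 19.3), Cxcl1 (20.2 ± 1.98), Cxcl5 (4.13 ± 0.205) and Ccl20 (3.13 ± 0.190), with no overlap between them. Cxcl2 (1.59 ± 0.160) and Cxcl10 (1.57 ± 0.0792) followed and overlapped each other, as did Ccl7 (0.691) and Cxcl16 (0.491) after them. Ccl2, which had the smallest fold change of the 4 genes that rose, was 70.2 times as abundant after H/R, per length, as the next of them, Ccl20.

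The makeup of the chemokine message was set against the 29 chemokine ligand genes analysed here. Their RPKM summed to 121.7, 110.8 and 123.4 in Control and to 251.4, 290.5 and 283.8 after H/R. The mean sum was thus 2.32 times as high after H/R, with no overlap between the groups (exact permutation p = 0.1, two-sided). Ccl2 made up 45.07%, 44.95% and 44.80% of this sum in Control and 78.92%, 81.33% and 78.94% after H/R. The share of Cxcl5 went from 21.23%, 20.85% and 21.14% to 1.56%, 1.49% and 1.45%. That of Cxcl1 went from 17.63%, 19.36% and 18.45% to 8.17%, 6.22% and 7.75%, at a level that did not differ beyond the spread. The 3 genes together made up most of the ligand message in every library.

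**Figure D4:**
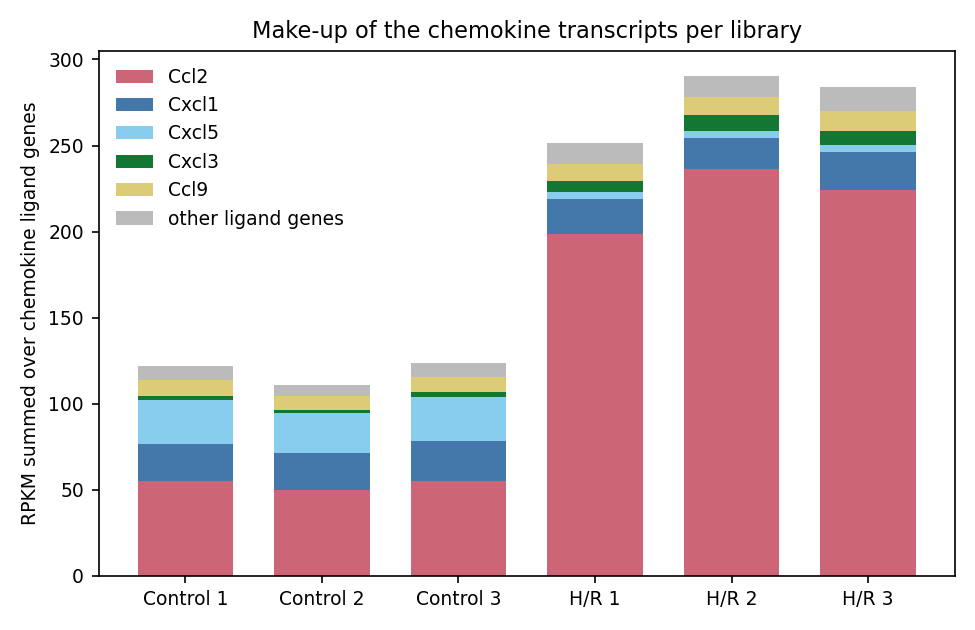
Summed RPKM of the 29 chemokine ligand genes analysed, stacked by gene, in each of 3 Control and 3 H/R libraries. Ccl2 takes up 44.80% to 45.07% of the Control bars and 78.92% to 81.33% of the H/R bars, while the Cxcl5 segment shrinks from about 21% to at most 1.56%.

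Of 28 other chemokine ligands listed, 19 were analysed and 7 tested. Of these 7, 2 were called higher (Cxcl3 and Cxcl11) and 1 lower, beside 4.25% and 4.27% of all genes tested. The one that fell was Ccl6, a ligand of Ccr1 on myeloid cells, with 35, 40 and 19 counts in Control and 9, 11 and 18 after H/R (log2 fold change -1.16, edgeR adjusted p = 0.00245). Its normalised counts overlapped (lowest Control library 17.89, highest H/R library 17.99). It reached the filter's level in 3 Control and 2 H/R libraries, so that it passed through the Control libraries, where it is higher. The median log2 fold change over these 7 genes was 0.00, against -0.01 over all genes tested. Of 23 receptors listed, 15 were analysed and 3 tested. Among these 3, 2 were called higher and 0 lower, beside 4.25% and 4.27% of all genes tested. Cx3cr1, the receptor of Cx3cl1, had 21, 39 and 19 counts in Control and 127, 86 and 158 after H/R (5.13-fold, log2 fold change 2.36, SE 0.254, edgeR adjusted p = 3.99e-07), with no overlap. Ackr3, a scavenging receptor for Cxcl12 and Cxcl11, had 7, 15 and 16 counts and then 34, 29 and 37 (2.87-fold, edgeR adjusted p = 4.67e-05). Ackr3 reached the filter's level in 2 Control and 3 H/R libraries, so that it passed through the H/R libraries. Cxcr2, the receptor of Cxcl1, Cxcl2 and Cxcl5, had 2 to 8 counts, Cxcr6 (for Cxcl16) 0 to 2 and Cxcr4 (for Cxcl12) at most 1. Cxcr3, Ccr2 and Ccr6 were not analysed here.

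Markers of leukocytes, which are a known source of these chemokines in the liver, were checked. Ptprc, which marks all leukocytes, had at most 3 counts in any library, and Adgre1, Clec4f and Itgam of macrophages had at most 1. Of the 9 macrophage and leukocyte markers analysed, 4 had 3 counts or fewer, and the summed count was 825 to 932 in Control and 565 to 650 after H/R, most of it from Cd14. Of the 3 markers tested, 1 (Cd68) was called higher and 0 lower, beside 4.25% and 4.27% of all genes. At adjusted p alone Cd68 and Csf1r were higher and Cd14 lower, beside 31.0% and 31.8% of all genes. Within this list Cd68, a lysosomal protein, had 16, 22 and 22 counts in Control and 123, 113 and 137 after H/R (log2 fold change 2.77), Csf1r, a macrophage growth factor receptor, had 57, 48 and 42 and then 68, 60 and 79 (log2 fold change 0.63, edgeR adjusted p = 0.00362), and Cd14 had 849, 735 and 754 and then 371, 436 and 424 (log2 fold change -0.79), and the part of such changes in the chemokine values was not tested. Of the endothelial markers 5 of 6 had 3 counts or fewer, as had 4 of 6 stellate cell markers, with summed counts of 3 to 13 and 17 to 25 in Control and of 4 to 10 and 12 to 24 after H/R.

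The genes known to act on chemokine transcription were taken in the order of their pathways. NF-kB is a family of dimers held in the cytoplasm by inhibitors until a signal degrades them. Of 14 subunits and inhibitors listed, 13 were tested and 0 were called by edgeR, or by DESeq2, since none reached a fold of 2. At adjusted p alone 10 were higher and 3 lower, beside 31.0% and 31.8% of all genes, and all 13 had an unadjusted p under 0.05. Their median log2 fold change was 0.43, from -0.95 (Nfkbie) to 0.71 (Tnip1), both named for being the extremes. Nfkbia, the inhibitor that NF-kB itself induces, had a log2 fold change of 0.36 (SE 0.061), and Rela, the subunit p65, one of 0.44 (SE 0.042); both were named after their values were seen.

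Immediate-early transcription factors of the AP-1 and EGR families, which appear within minutes to hours of a stimulus, were listed together with the C/EBP factors. All 11 genes of this list were tested and 8 were called higher and 0 lower, beside 4.25% and 4.27% of all genes, with a median log2 fold change of 2.03. The 3 that were not called were Cebpb (log2 fold change -0.15), Cebpd (0.19) and Jund (0.61). Egr1, an immediate-early zinc finger factor, had 13, 15 and 26 counts in Control and 1484, 1594 and 1584 after H/R (log2 fold change 6.56, SE 0.108, edgeR adjusted p = 1.37e-31). Atf3, a stress-induced factor, had 308, 255 and 331 counts and then 3222, 3059 and 3326 (log2 fold change 3.56). Jun, a subunit of AP-1, had 307, 237 and 319 and then 1623, 1279 and 1748 (log2 fold change 2.57). Fosb, its partner, had 2, 4 and 0 counts and then 65, 55 and 51 (log2 fold change 4.88), and passed the filter only through the H/R libraries.

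The cytokines known to induce chemokines in hepatocytes had few or no counts in these cells. Tnf and Il6 had at most 2 counts in any library and Il1b at most 1, these 3 being named after their values were seen. Of 18 cytokines and receptors listed, 10 were tested, 1 was called higher and 1 lower, beside 4.25% and 4.27% of all genes tested. Il1r1, the signalling receptor of interleukin 1, had 11, 8 and 5 counts in Control and 20, 15 and 25 after H/R (log2 fold change 1.44, edgeR adjusted p = 0.00107), and it passed the filter only through the H/R libraries, with 1 Control library at the filter's level. Il33, an alarmin of the interleukin 1 family, had 202, 215 and 199 counts and then 85, 85 and 99 (log2 fold change -1.06, edgeR adjusted p = 1.49e-09).

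Genes of the interferon pathway, of which Cxcl10 and Cxcl11 are known targets, gave 0 calls by edgeR and by DESeq2 among 10 tested of 15 listed. At adjusted p alone 5 were higher and 3 lower, beside 31.0% and 31.8% of all genes, and 9 had an unadjusted p under 0.05. Their median log2 fold change was 0.26, and the highest was 0.74 (Gbp2, a guanylate-binding protein, named for being the extreme). The classical targets on the list that did not pass the filter, named after their values were seen, were Isg15 with 1 to 6 counts, Ifit1 with at most 2 and Ifit3 with 7, 6 and 9 counts in Control and 4, 1 and 3 after H/R. The part of interferon in the values of Cxcl10 and Cxcl11 was not tested.

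Chemokine messages often carry AU-rich elements by which proteins of the Zfp36 family speed their decay. Of 8 mRNA decay factors listed and tested, 1 was called higher and 0 lower, beside 4.25% and 4.27% of all genes. The called gene was Zfp36l1, which rose 3.68-fold (log2 fold change 1.88, SE 0.0956, edgeR adjusted p = 4.09e-18). Of its exon length 56.0% is shared with Gm26669 on the other strand, whose counts are not given here. Zfp36 itself had a log2 fold change of 0.90 and Zc3h12a (Regnase-1) one of -0.56, both named after their values were seen. At adjusted p alone 4 of the 8 were higher and 4 lower, beside 31.0% and 31.8% of all genes. The median log2 fold change of the 8 was 0.22.

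**Figure D5:**
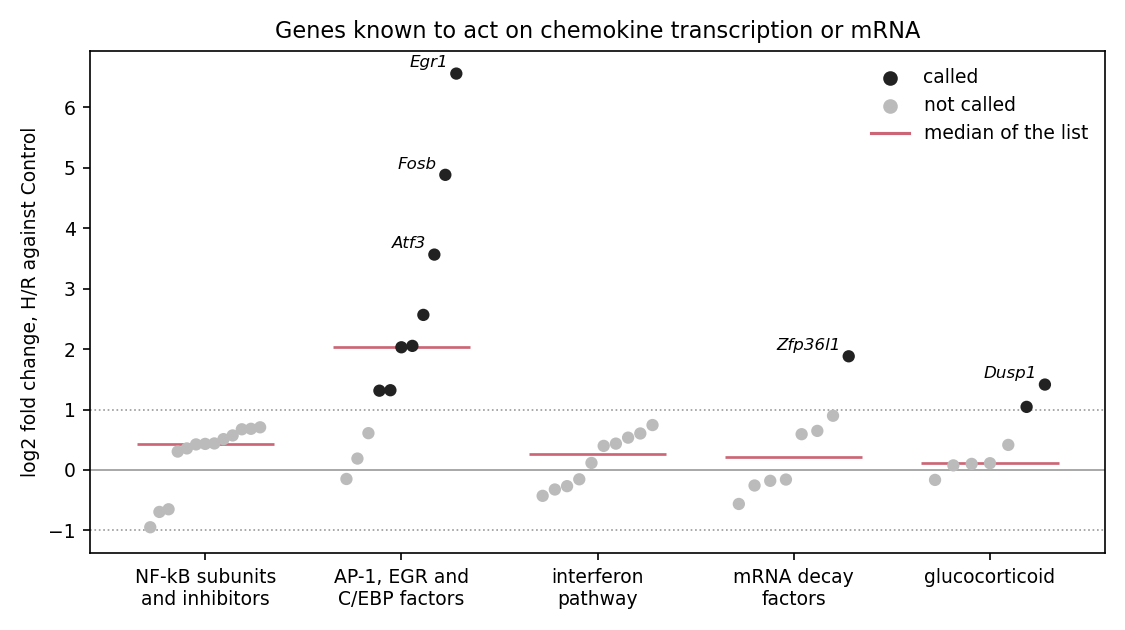
Log2 fold change (H/R against Control, edgeR) of every tested gene in the lists of regulators, with 1 point per gene (black where called), a bar at the list median and dotted lines at 2-fold. The AP-1, EGR and C/EBP list has its median at 2.03, against 0.43 for NF-kB, 0.26 for the interferon pathway, 0.22 for mRNA decay and 0.11 for the glucocorticoid list.

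The 3 genes whose log2 CPM (counts relative to the library total) followed those of Ccl2 most closely over the 6 libraries, among genes with a mean count of at least 100, were Tob1, Rab30 and Ccnl1, with Pearson's r of 0.9998, 0.9998 and 0.9996. Tob1, an anti-proliferative protein, had a log2 fold change of 0.72, Rab30, a small GTPase of the Golgi, one of 2.73, and Ccnl1, a cyclin that acts in splicing, one of 0.97. The 6 points fall into 2 groups and share their libraries, so such values are a description.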

How the data were processed

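Stranded mRNA libraries of 3 Control and 3 H/R samples were sequenced. The authors mapped reads to GRCm38, and the submitters' processing notes name Trimmomatic 0.36, featureCounts of Subread 1.5.1 and edgeR 3.12.1. Whether counting used strand is not given in the sources used here. Some other genes named also share exon length with genes on the other strand, among them Jund (52.6%), Ankrd37 (26.4%) and Bnip3 (22.25%). The counts of those overlapping genes are not given here. The authors deposited, per library, whole-number counts per gene without normalisation. The deposited RPKM values follow from count, gene length and library total. In 24 rows the symbol had become a date, and these are not named. The counts were fitted with edgeR 4.0.16 under R 4.3.3 (filterByExpr, TMM, robust estimateDisp, glmQLFit and glmQLFTest), with Benjamini-Hochberg adjustment over 14020 genes. Standard errors come from the F statistic. Normalised counts are scaled to the mean effective library size. RPKM levels of single members were compared between genes. The summed RPKM of the ligand genes and some of the alternatives below also compared RPKM between groups, where it is scaled by library totals without TMM. The scripts were tested on simulated data.

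The chemokines and all gene lists were chosen with earlier results of these data known. Named are all 10 chemokines, at most 4 called genes of each other list with the largest absolute log2 fold change, receptors of measured chemokines, and the 3 genes most like the called chemokine of the highest mean count. All other genes named, marker checks, overlapping genes and uncalled list members among them, were chosen after their values were seen. Alternatives were DESeq2 1.42.0, library totals alone, upper quartile scaling, no filter, at least 10 counts in every library, a replicate block, limma-trend (limma 3.58.1) on log2(RPKM + 1) and log2(RPKM + 0.1), and leaving out each library. Motifs were searched on both strands of RefSeq promoters (250 bases before to 50 after the start). The depth of 20438746 to 21854790 counts a library limits the precision for genes with few counts. The result of 1 gene of the interferon list is not reported here.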

Additional observations from a re-analysis of the deposited data

How the results depend on the processing

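Of the 10 chemokines, 5 were called under every alternative but 1 and when each library was left out (5 to 5). With at least 10 counts required in every library 2 were called, because Cxcl2, Cxcl10 and Ccl20 could not be tested. Of all genes, 406 were called by limma-trend on log2(RPKM + 1), which understates changes of low genes, against 1195, and 1211 to 1290 with a library left out. Cxcl1 changed sign, at a log2 fold change of 0.00381 with DESeq2, 0.00683 without Control replicate 3 and 0.0595 without H/R replicate 2, with -0.0652 to 0.0595 over the libraries left out and an adjusted p of at least 0.12 throughout. The log2 fold change ran from 2.02 to 2.21 for Ccl2, from -2.60 to -2.34 for Cxcl5, from 1.24 to 4.38 for Cxcl2, from 1.17 to 3.72 for Cxcl10 and from 1.73 to 3.94 for Ccl20, the lowest values of the last 3 being on the log2(RPKM + 1) scale. Scaling by library totals alone moved the median of all genes to -0.12. Replicates of the same number did not deviate together over the genes tested (correlations of -0.0269, 0.00476 and -0.0141). The labels do not say that they were paired, and these values cannot exclude it. With the replicate block 1200 of all genes and 5 of the chemokines were called.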

Other observations

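Genes that release or retain chemokines were measured beside the chemokines themselves. Of 20 listed, 14 were tested by edgeR's quasi-likelihood test. By it 1 was called higher and 0 lower, beside 4.25% and 4.27% of all genes. Sdc4 (syndecan-4), a heparan sulfate proteoglycan of the cell surface that can bind chemokines, had 2773, 2657 and 2772 counts in Control and 5873, 6399 and 6568 after H/R, without overlap. It rose 2.53-fold (log2 fold change 1.34, SE 0.0429, edgeR adjusted p = 5.33e-24). Adam10 and Adam17, the proteases that shed Cxcl16 and Cx3cl1, had log2 fold changes of 0.24 and -0.18 and were named after their values were seen. At adjusted p alone 5 genes of the list were higher and 5 lower, beside 31.0% and 31.8% of all genes. The median log2 fold change of the list was -0.03.

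Of 10 hypoxia response genes tested in the same libraries, 7 were called higher and 1 lower, beside 4.25% and 4.27% of all genes, with a median log2 fold change of 1.42. The one that fell was Epas1, which encodes HIF-2 alpha (log2 fold change -1.58), and Car9, the tumour-associated carbonic anhydrase, had one of -0.17 (edgeR adjusted p = 0.686). Adm (adrenomedullin) had 14, 14 and 14 counts in Control and 170, 191 and 167 after H/R (log2 fold change 3.78), the mitophagy receptor Bnip3 had a log2 fold change of 3.05 and the glucose transporter Slc2a1 one of 3.01. Ankrd37, another hypoxia-induced gene, stood at 2.74. A glucocorticoid list of 7 genes was included because dexamethasone was in the routine medium. Whether the medium used for hypoxia held it is not stated. Of its genes 2 were called higher and 0 lower, beside 4.25% and 4.27% of all genes. They were Dusp1 (log2 fold change 1.41) and the receptor Nr3c1 (1.04), and the median of the list was 0.11. The part of either list in the chemokine values was not tested.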
